A study of Mus musculus with 3 samples.

Results

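Cadherins are calcium-dependent adhesion proteins of the cell surface, and the cadherins and non-clustered protocadherins were followed here across the cell types of the mouse olfactory bulb (OB). Members were taken by symbol alone, as every gene named Cdh, Pcdh or Cdhr with a plain number, which gave 40 of 31055 genes. Protocadherins of the clustered families were not taken. Classical cadherins of type I and type II bind cadherins on neighbouring cells through their outer repeats and are tied to actin by catenins. Delta-protocadherins also bind across contacts but carry other cytoplasmic tails, some of which recruit the actin regulator WAVE. In the nervous system both groups are known for cell sorting, axon growth and the matching of synaptic partners. By subfamily the members were 5 type I and 13 type II cadherins, the GPI-anchored Cdh13, 2 seven-repeat cadherins, 8 atypical cadherins, 4 delta1-protocadherins, 5 delta2-protocadherins and 2 other protocadherins.

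Nuclei came from the OB of 3 adult male mice of strain C57Bl/6, which form 1 group without a control. Each mouse had received retroAAV-CAG-H2B-GFP, a virus that travels back along axons and labels nuclei green from a general promoter, in the piriform cortex (PCx) and the anterior olfactory nucleus (AON). Labelled nuclei were sorted and their 3′ RNA ends were counted in droplets as unique molecular identifiers (UMIs), 1 library per mouse. The labelling reaches neurons with an axon in the injected areas, but the sorted nuclei also held interneurons and glia. The comparisons therefore run between cell types, with the mouse as the replicate.

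Of 31703 retained nuclei, 5845, 21105 and 4753 were from mice 1, 2 and 3, with 58526996, 213891496 and 62929479 UMIs. The authors' 22 clusters were named here from marker genes, 5 of them as projection-neuron-like (7504 nuclei) and 10 as inhibitory-like (21236 nuclei). Gad1, which marks inhibitory neurons, also reached 291 to 338 UMIs per 1000000 UMIs of a library (CPM) in the oligodendrocyte-like, vascular-like, astrocyte-like, ensheathing-like and microglia-like clusters, and low levels are read against such values. Among the projection clusters, 7 subclusters with 6346 nuclei carried the markers of mitral cells (M1-, M2- and M3-like) or of tufted cells (T1-, ET1-, ET2- and ET4-like). Mitral cells are the deep and tufted cells the more superficial output neurons of the OB. Subclusters 2, 8 and 9, with 943, 126 and 89 nuclei, stayed unnamed. Mice 1 and 2 shared 39 barcodes, mice 1 and 3 shared 8, and mice 2 and 3 shared 35. One library stood apart, the M1-like library of mouse 1, which held 14 nuclei and 161593 UMIs, and the M1 values that it moves most are given with and without it.

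Member UMIs came to 2753423 in all. Cdh15, a muscle cadherin, had no UMI, and 6 members had 1 to 100 UMIs. Because clusters were formed by the authors on counts that include these genes, the p-values below measure how steadily a level differed between groups over the 3 mice and do not test whether the groups exist. Levels are in CPM, as mean ± SD over 3 mice, and differences are log2 fold changes ± standard error from edgeR. A member was called at an adjusted p under 0.05 and a log2 fold change beyond 1 in either direction.

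Cdh6, Cdh8, Pcdh9, Pcdh15 and Pcdh19 are among the members that differed between projection neuron types, and Cdhr1 marks projection neurons as a class. Their promoter windows, the 250 bases before the RefSeq start of each gene (assembly GRCm38.p6, printed in the direction of the gene), are shown so that the sequence can be read beside the levels. The windows lie at chr15:13173676-13173925 on the minus strand for Cdh6, chr8:99416472-99416721 on the minus strand for Cdh8, chr14:37098348-37098597 on the minus strand for Cdhr1, chr14:93890670-93890919 on the minus strand for Pcdh9, chr10:73821617-73821866 on the plus strand for Pcdh15 and chrX:133688994-133689243 on the minus strand for Pcdh19. Capitals mark overlapping GC boxes in Cdh6, a GC box each in Cdh8 and Pcdh19 and a TATA box in Pcdh15. The window of Pcdh15 belongs to a RefSeq start that lies 722525 bases inside the GENCODE gene, whereas the starts of the other 5 lie within 10 bases of it.
Cdh6: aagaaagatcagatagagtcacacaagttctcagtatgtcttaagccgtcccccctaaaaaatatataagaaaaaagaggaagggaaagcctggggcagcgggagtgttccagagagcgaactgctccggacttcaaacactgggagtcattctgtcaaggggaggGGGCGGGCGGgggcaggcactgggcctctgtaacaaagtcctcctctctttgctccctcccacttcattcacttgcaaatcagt
Cdh8: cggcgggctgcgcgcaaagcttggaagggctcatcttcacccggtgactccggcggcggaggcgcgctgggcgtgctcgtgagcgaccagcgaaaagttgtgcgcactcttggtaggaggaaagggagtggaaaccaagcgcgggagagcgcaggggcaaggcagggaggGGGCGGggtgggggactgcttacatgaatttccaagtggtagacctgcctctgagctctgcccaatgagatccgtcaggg
Cdhr1: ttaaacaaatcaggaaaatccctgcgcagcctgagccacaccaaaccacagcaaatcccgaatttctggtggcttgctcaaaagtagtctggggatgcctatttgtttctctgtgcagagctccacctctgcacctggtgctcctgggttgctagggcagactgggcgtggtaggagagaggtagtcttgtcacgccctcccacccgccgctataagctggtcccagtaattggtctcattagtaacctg
Pcdh9: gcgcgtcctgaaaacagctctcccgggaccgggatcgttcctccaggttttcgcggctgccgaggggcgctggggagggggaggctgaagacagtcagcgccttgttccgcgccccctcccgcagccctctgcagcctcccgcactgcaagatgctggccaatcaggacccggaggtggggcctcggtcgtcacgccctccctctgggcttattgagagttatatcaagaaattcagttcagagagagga
Pcdh15: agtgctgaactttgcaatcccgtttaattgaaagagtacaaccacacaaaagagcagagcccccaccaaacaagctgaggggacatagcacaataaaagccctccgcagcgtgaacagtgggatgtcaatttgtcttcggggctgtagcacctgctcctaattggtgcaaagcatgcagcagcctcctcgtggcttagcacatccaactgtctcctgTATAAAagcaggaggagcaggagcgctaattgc
Pcdh19: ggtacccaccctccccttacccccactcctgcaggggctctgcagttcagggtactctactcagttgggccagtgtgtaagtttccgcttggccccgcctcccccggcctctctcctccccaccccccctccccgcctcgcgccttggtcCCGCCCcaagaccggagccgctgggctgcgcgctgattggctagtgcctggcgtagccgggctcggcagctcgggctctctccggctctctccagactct

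RefSeq windows were matched for 27 of the 40 members, 30 windows in all, since Cdh7 has 3 starts and Pcdh9 has 2. Of these windows, 25 end within 1000 bases of the GENCODE gene start, and those of Cdh10, Cdh12, Cdh18, Pcdh15 and 1 of Cdh7 lie further inside the gene. Letters were searched on both strands in these and in all 32851 windows of the same length. A GC box (GGGCGG or CCGCCC) was found in 9 of 30 member windows against 32.7% of all windows, namely in Cdh6, Cdh8, Cdh15, Cdh22, Cdh24, Pcdh10, Pcdh17, Pcdh18 and Pcdh19. The TATA box (TATAAA or TTTATA) was in 2 member windows (6.67% against 12.4%), starting 33 bases before the start of Pcdh15 and 30 bases before that of Pcdh8. The homeodomain core TAATTA was in 1 window, of Cdh7 (3.33% against 4.84%). The T-box letters AGGTGTGA, or TCACACCT on the other strand were in no member window, and in 1.12% of all windows. The median GC content of the member windows was 55.8%, and that of all windows 52.4%. These matches describe letters in the windows and no binding.

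Nearly all members that could be tested differed between the 7 projection neuron types. After a filter on low counts 29 of the 40 members were tested, and 26 of them differed between types at an adjusted p under 0.05 (64.8% of all genes tested did so). The exceptions were Cdh19 (adjusted p = 0.081), Cdh24 (adjusted p = 0.2) and Pcdh8 (adjusted p = 0.093), whose means did not exceed 4.29 CPM in any type. With the mouse as a block in the model, Pcdh8 passed as well (adjusted p = 0.032). In the contrast of each type with the mean of the other 6 types, 25 of the 29 were called in at least 1 type (37.1% of all genes were). The filter keeps a gene that is high in 1 type alone, so these counts speak for the members tested and not for the family.

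M1-like nuclei had 9 members called higher and 5 lower, where 7.81% and 4.04% of all genes were called. M2-like nuclei had 7 and 3 (background 6.83% and 5.29%), and M3-like nuclei 9 and 5 (5.37% and 3.2%). Among tufted types, T1-like nuclei had 7 higher and 10 lower (6.68% and 5.5%), and ET1-like nuclei 6 and 2 (5.17% and 3.44%). With all subclusters in the fit, ET1-like nuclei had 3 higher and 4 lower instead. The 5 lower calls of M3-like nuclei became 3 without mouse 1 or with library size alone as the scaling. ET2-like nuclei had 9 and 6 (7.64% and 6.18%), whereas ET4-like nuclei had 3 higher and 13 lower (8.72% and 9.32%). The median size of the log2 difference over members ranged from 0.66 in ET1-like to 1.46 in T1-like nuclei, beside 0.26 and 0.30 over all genes tested. ET4-like nuclei thus had the most members called lower, and T1-like nuclei had members far apart in both directions.

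**Figure D1:**
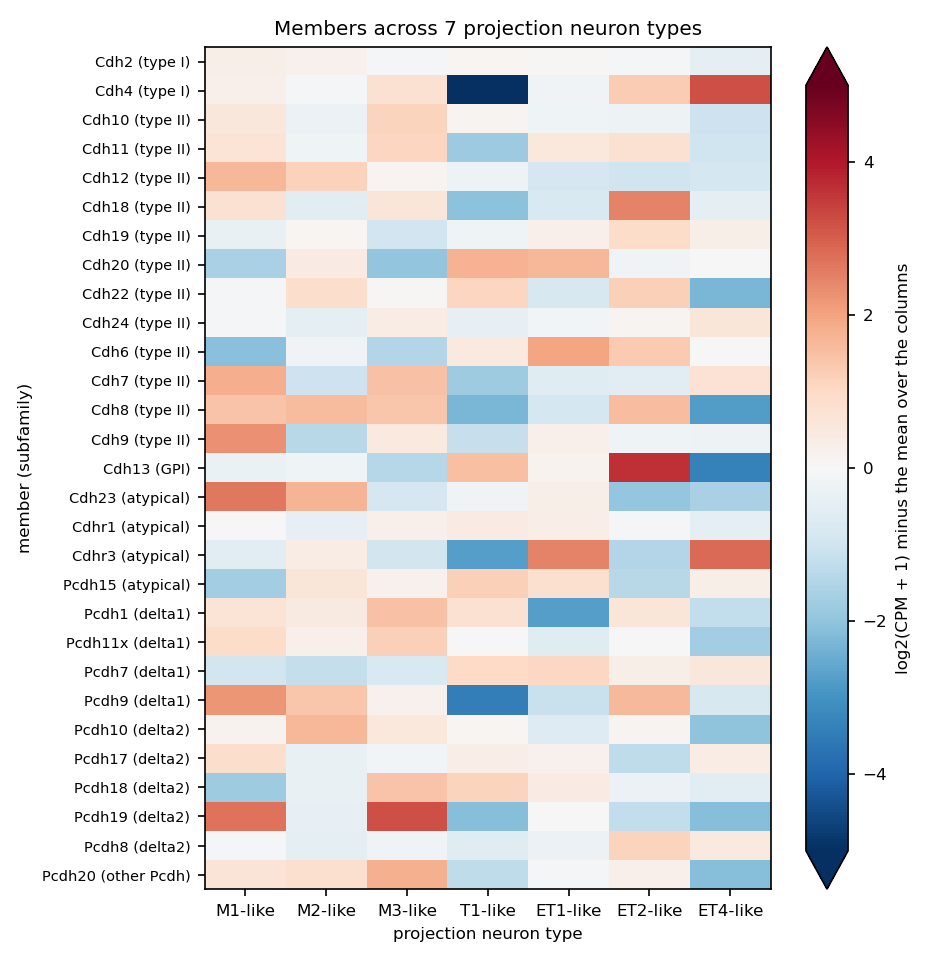
Levels of the 29 tested members (rows, with subfamily) in the 7 projection neuron types (columns), as log2(CPM + 1) of the mean of 3 mice minus the mean over the 7 types, with colours ending at 5 in either direction. Cdh13 stands out as high in ET2-like and low in ET4-like nuclei, Cdh4 as low in T1-like and high in ET4-like nuclei, and Pcdh19 as high in M1- and M3-like nuclei.

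Cdh13 (T-cadherin, ENSMUSG00000031841, chr8:118283733-119324921, plus strand, GRCm38) is held in the membrane by a lipid anchor and has no cytoplasmic tail. It was highest in ET2-like nuclei, at 1347, 1293 and 1261 CPM in mice 1, 2 and 3. T1-like nuclei followed with 316, 266 and 294 CPM, and ET4-like nuclei came last with 5.98, 9.92 and 11.2 CPM. No library of these 3 types overlapped with one of another type. Between them lay ET1-like (115 ± 38.8), M2-like (88.9 ± 18.4), M1-like (82.3 ± 33.9) and M3-like nuclei (37.7 ± 16.1), in which each neighbour in this order overlapped with the next. Against the mean of the other types the log2 difference was 4.19 ± 0.14, adjusted p = 2.1e-18 in ET2-like, 1.87 ± 0.15, adjusted p = 1.6e-10 in T1-like and -4.22 ± 0.26, adjusted p = 1e-12 in ET4-like nuclei.

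Cdh8, a type II cadherin (ENSMUSG00000036510, chr8:99024471-99416471, minus strand, GRCm38), divided the types into a high and a low set. The high set held M2-like (225, 225 and 246 CPM), ET2-like (255, 212 and 198 CPM), M1-like (266, 198 and 150.2 CPM) and M3-like nuclei (134, 232 and 235 CPM). Neighbours in this set overlapped, and their order is not resolved. The low set held ET1-like (39.0, 45.1 and 39.8 CPM), T1-like (16.6, 13.0 and 14.5 CPM) and ET4-like nuclei (5.98, 14.4 and 9.78 CPM). No library of the low set reached the lowest of the high set, so that all mitral types and a single tufted type, ET2-like, were high. Cdh8 was called higher in M2-like (2.07 ± 0.12, adjusted p = 1e-12) and lower in ET4-like nuclei (-3.33 ± 0.21, adjusted p = 1.3e-12). It was also called higher in M1-, M3- and ET2-like and lower in T1-like nuclei.

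Cdh6, another type II cadherin (ENSMUSG00000039385, chr15:13028701-13173675, minus strand, GRCm38), ran the other way, with tufted types at the top. ET1-like nuclei had 724, 764 and 791 CPM, ET2-like nuclei 487, 484 and 459 CPM and T1-like nuclei 265, 255 and 289 CPM. These 3 types did not overlap with each other or with any other type. ET4-like (188 ± 20.6) and M2-like nuclei (172 ± 4.52) overlapped, and M3-like (68.2 ± 25.0) and M1-like nuclei (44.8 ± 25.7, or 30.1 without mouse 1) were lowest and overlapped through the M1-like library of mouse 1 alone. The difference was 2.46 ± 0.11, adjusted p = 3.1e-15 for ET1-like and -2.89 ± 0.18, adjusted p = 2.5e-12 for M1-like nuclei.

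Cdhr1 (photoreceptor cadherin, ENSMUSG00000021803, chr14:37077857-37098347, minus strand, GRCm38) is an atypical cadherin needed for photoreceptor outer segments and a known marker of mitral and tufted cells. The study used it to choose projection neuron clusters. Within these clusters its levels spanned a narrow range, from 298, 198 and 235 CPM in ET4-like to 505, 429 and 432 CPM in T1-like nuclei. In the order T1, ET1, M3, M1, ET2, M2 and ET4, only ET2-like (328 ± 28.3) and M2-like nuclei (262 ± 4.66) were neighbours without overlap. The types differed (adjusted p = 5.8e-07), but no single type was called against the others.

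**Figure D2:**
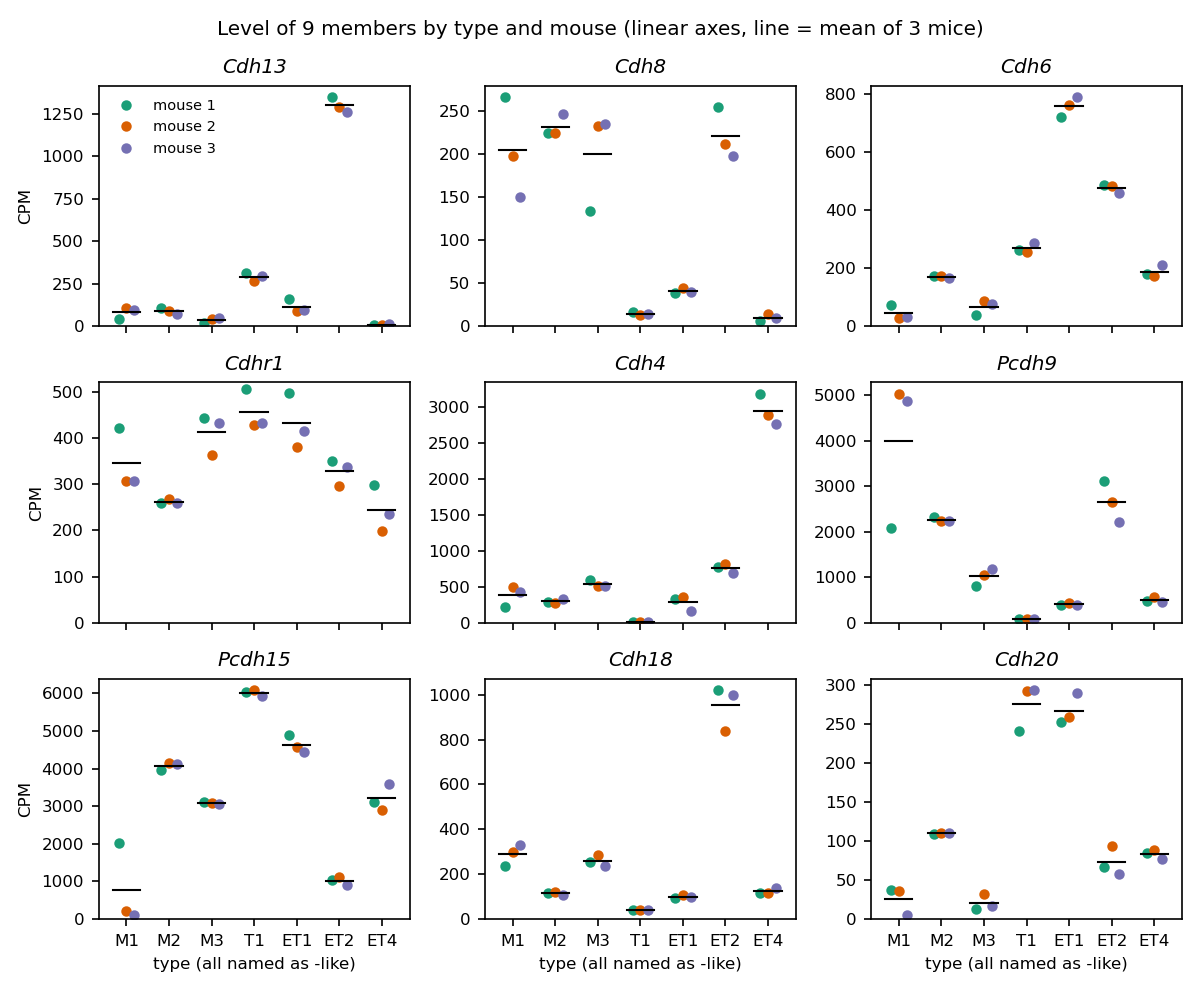
CPM of 9 members in each projection neuron type (x axis, all named as -like), with 1 point per mouse, a line at the mean of 3 mice, and linear y axes that start at 0. Points of neighbouring types overlap for some members and lie apart for others. In M1-like nuclei mouse 1 (14 nuclei) departs from mice 2 and 3, among others for Pcdh15 and Pcdh9.

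The members called higher in single mitral types included atypical and type II cadherins and Pcdh19. In M1-like nuclei Cdh23, known with Pcdh15 as a partner in the tip links of hair cells, was at 49.5, 87.6 and 118 CPM and was called higher (3.47 ± 0.17, adjusted p = 2.4e-14). Cdh9, a type II cadherin known from mossy fibre synapses of the hippocampus, was at 0, 55.3 and 67.7 CPM (3.44 ± 0.23, adjusted p = 1.1e-11), so that the small library of mouse 1 had none. Pcdh19, an X-linked delta2-protocadherin whose loss causes epilepsy in people, was at 92.8, 75.6 and 77.1 CPM in M1-like nuclei (3.25 ± 0.17, adjusted p = 1.2e-13). It was also high in M3-like nuclei, at 127, 124 and 105 CPM (3.73 ± 0.20, adjusted p = 8.2e-13), while the other 5 types had means between 1.89 and 11.5 CPM. Cdh6, Pcdh15 (-2.51 ± 0.45, adjusted p = 0.0001) and Cdh20 (-2.17 ± 0.30, adjusted p = 2.5e-06) were the members furthest below the other types in M1-like nuclei.

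The library of mouse 1 changes the size of some of these M1 values. Pcdh15 was at 2024, 216 and 112 CPM, Cdh11 at 272, 16.8 and 19.1 CPM and Pcdh9 at 2079, 5039.6 and 4875 CPM in mice 1, 2 and 3. Mouse 1 thus lay far above the others for Pcdh15 and Cdh11 and below them for Pcdh9 and Cdh9. Without that library the difference of Pcdh15 became -4.24 ± 0.17, adjusted p = 1.3e-15, that of Cdh9 3.62 ± 0.18, adjusted p = 4.5e-14 and that of Pcdh9 2.94 ± 0.09, adjusted p = 1.3e-17 (with it 2.59 ± 0.15, adjusted p = 9.8e-13). Those of Cdh23 (3.59 ± 0.16, adjusted p = 3.3e-15), Pcdh19 (3.26 ± 0.18, adjusted p = 3.4e-13), Cdh6 (-2.97 ± 0.17, adjusted p = 5.8e-13) and Cdh20 (-2.19 ± 0.31, adjusted p = 4.7e-06) stayed within their standard errors of the values with it. Pcdh7, called lower in M1-like nuclei with it (-1.05), fell short of the fold threshold without it (-0.89 ± 0.15, adjusted p = 7.1e-05). Cdh11 and Cdh18 were called in M1-like nuclei only without it (-1.62 ± 0.19, adjusted p = 2.9e-07, and 1.08 ± 0.09, adjusted p = 8.9e-10). Cdh11 was also called, at -1.13, with the mouse as a block.

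In M2-like nuclei Cdh23 (2.30 ± 0.17, adjusted p = 6.1e-11), Cdh8 and Pcdh10 (2.06 ± 0.15, adjusted p = 7.6e-11) were furthest above the other types. Pcdh10, a delta2-protocadherin that binds the WAVE complex, was at 136, 119.6 and 129 CPM there, above every library of the other types, whose means ran from 9.10 to 57.5 CPM. Cdh9 (-1.77 ± 0.34, adjusted p = 0.00019), Pcdh7 (-1.25 ± 0.15, adjusted p = 4.6e-07) and Cdh7 (-1.21 ± 0.20, adjusted p = 4.3e-05) were furthest below. Cdh7, a type II cadherin, was at 24.8, 29.1 and 27.3 CPM in M1-like and at 2.5, 3.05 and 2.95 CPM in M2-like nuclei, which did not overlap, although these types were not tested against each other. Pcdh15 in M2-like nuclei was called only in some fits, at 1.26 without the M1-like library of mouse 1 and at 1.02 with the mouse as a block.

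In M3-like nuclei Pcdh20 (38.1, 45.9 and 66.1 CPM, 1.96 ± 0.27, adjusted p = 9.3e-06) and Cdh7 (18.2, 24.7 and 19.3 CPM, 1.81 ± 0.23, adjusted p = 3e-06) followed Pcdh19. Pcdh20, a protocadherin outside the delta subfamilies, had no overlap with other types. Cdh20 (-2.39 ± 0.36, adjusted p = 2.1e-05), Cdh13 (-1.86 ± 0.25, adjusted p = 5.3e-06) and Cdh6 (-1.81 ± 0.17, adjusted p = 1.3e-08) were furthest below. M3-like nuclei were shallower than the rest, with a median of 5915 UMIs against 10419 to 20781 in the other types. Low counts in this type are accordingly less precise, as Cdh20 with 53 UMIs over the 3 mice shows.

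T1-like nuclei had more members called lower than higher. Cdh4 (R-cadherin, ENSMUSG00000000305, chr2:179442431-179899373, plus strand, GRCm38), a type I cadherin of retina and brain, was at 4.20, 12 and 5.19 CPM there and at 283 CPM or more on average in each other type (-6.16 ± 0.33, adjusted p = 7.9e-14). Pcdh9 (ENSMUSG00000055421, chr14:93013410-93890679, minus strand, GRCm38), a delta1-protocadherin, was at 86.4, 75.3 and 72.5 CPM (-3.94 ± 0.25, adjusted p = 2.3e-12), below every library of the other types. Cdhr3, known as the receptor of rhinovirus C in airway epithelium, was at 2.22, 2.65 and 1.25 CPM (-3.56 ± 0.22, adjusted p = 1e-12). In the other direction Cdh20 (241, 292 and 293 CPM, 2.17 ± 0.18, adjusted p = 5.1e-10), Cdh13 and Pcdh18 (12.8, 12.6 and 15.5 CPM, 1.62 ± 0.20, adjusted p = 4.6e-07) were highest above the mean of the others. Pcdh15 (ENSMUSG00000052613, chr10:73099342-74649737, plus strand, GRCm38) reached 6033, 6094 and 5931 CPM in T1-like nuclei, above every library of the other types (1.60 ± 0.31, adjusted p = 0.00021).

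ET1-like nuclei had high Cdh6, Cdh20 and Cdhr3 and little Pcdh1. Cdh20, a type II cadherin, was at 252, 258 and 289.6 CPM (2.06 ± 0.19, adjusted p = 4.9e-09), which overlapped with T1-like nuclei. Cdhr3 was at 134, 112 and 95.2 CPM (3.08 ± 0.13, adjusted p = 3.5e-15) and Cdh6 was highest of all types there. Pcdh1, a delta1-protocadherin, was at 0.897, 2.47 and 1.46 CPM, below every other library (-3.43 ± 0.29, adjusted p = 7.6e-10), and Pcdh9 was the other member called lower (-1.23 ± 0.20, adjusted p = 4.7e-05).

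In ET2-like nuclei, beside Cdh13, the type II cadherin Cdh18 (ENSMUSG00000040420, chr15:22549022-23474418, plus strand, GRCm38) stood above all other types. Its level was 1022, 838 and 999.7 CPM, and the next type, M1-like, had 235, 300.4 and 328 CPM (2.83 ± 0.09, adjusted p = 1e-18). Pcdh9 was called higher as well, at 3126, 2651 and 2221 CPM (1.80 ± 0.16, adjusted p = 1.2e-09). Cdh23 (3.47, 2.32 and 2.12 CPM, -2.81 ± 0.38, adjusted p = 2e-06), Cdhr3 (8.10, 4.13 and 7.05 CPM, -2.14 ± 0.27, adjusted p = 5.2e-07) and Pcdh15 (1029, 1121 and 898 CPM, -1.59 ± 0.40, adjusted p = 0.0033) were furthest below. Pcdh8 was called in ET2-like nuclei only with the mouse as a block (1.40), from 22 UMIs.

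ET4-like nuclei had the highest Cdh4, and 13 of the 29 members were called lower there. Cdh4 was at 3183, 2891 and 2768 CPM (3.64 ± 0.16, adjusted p = 1.6e-15), above every other library, and the type next in order, ET2-like, had 779, 809.9 and 689 CPM. Cdhr3 was at 164, 138 and 133 CPM (3.30 ± 0.13, adjusted p = 1.2e-16), overlapping with ET1-like nuclei. Cdh7 was called just beyond the threshold (1.003 ± 0.19, adjusted p = 8.7e-05). It was not called with RLE scaling (0.98), no filter (0.99), DESeq2 (0.996), all subclusters in the fit (0.99) or without mouse 2 (0.71, adjusted p = 0.091). Cdh13, Cdh8 and the type II cadherin Cdh22 (3.99, 4.62 and 2.79 CPM, -2.87 ± 0.22, adjusted p = 4.4e-11) were furthest below, and 6 of the 13 members called lower did not overlap with any other type (23.3% of all genes called lower there did not). The latter were Cdh10, Cdh13, Cdh22, Pcdh10, Pcdh11x and Pcdh20.

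Cadherins that the study itself named as differing between types, Cdh6, Cdh7, Cdh8, Cdh9, Cdh13 and Cdh20, were all among the 26 that differed, which is not independent of the study because the samples are the same. Cdh7 ran in the order M1, M3, ET4, ET2, ET1, M2 and T1, where only ET2-like (4.31 ± 0.839) and ET1-like nuclei (4.17 ± 0.630) overlapped. Cdh20 ran from T1 and ET1, which overlapped, over M2 (109.6 ± 1.00), ET4 (83.2 ± 5.84) and ET2 (72.9 ± 18.6), the last pair of which overlapped, to M1 and M3, which overlapped again. Cdh9 was high in 2 of 3 M1-like libraries alone, and M3-like nuclei, next in the order, had 12.7, 11.5 and 9.67 CPM.

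The type II cadherins Cdh6, Cdh9, Cdh10, Cdh12 and Cdh18 lie on chromosome 15, 8 members on chromosome 8 and 6 on chromosome 14. On chromosome 15 the highest type was ET1-like for Cdh6, M1-like for Cdh9 and Cdh12, M3-like for Cdh10 and ET2-like for Cdh18. Cdh10 was at 737, 970.2 and 939 CPM in M3-like nuclei and Cdh12 at 254, 418 and 459 CPM in M1-like nuclei. M1-like and M3-like nuclei were the highest type for 7 of the 29 tested members each, ET2-like nuclei for 5, T1- and ET4-like nuclei for 3 each and M2- and ET1-like nuclei for 2 each. All genes were not counted in this way, so these numbers are not read as a trait of the members. The M1-like maxima, except that of Cdh7, overlapped with the next type. Of the M3-like maxima those of Pcdh11x, Pcdh18 and Cdh10 did. The ratio of the highest to the lowest type mean ran from 1.73 for the type I cadherin Cdh2 (N-cadherin), which is general in neurons, to 414 for Cdh4, whose share of nuclei in T1-like nuclei, its lowest type, is read as background below. Cdh2 lay between 189 ± 8.99 CPM in ET4-like and 328 ± 49.2 CPM in M1-like nuclei.

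The question whether mitral and tufted cells differ as classes was put to the mean of the 3 mitral types against the mean of the 4 tufted types. Of the 29 members tested, 11 were called higher in mitral types (5.53% of all genes were) and 4 higher in tufted types (3.81% of all genes). The median of the members was 0.38 and that of all genes -0.03. The 6 largest towards mitral types were Pcdh19 (3.33 ± 0.16, adjusted p = 1.7e-14), Cdh8 (2.55 ± 0.11, adjusted p = 1.8e-15), Cdh23 (2.33 ± 0.26, adjusted p = 1e-07), Pcdh9 (2.20 ± 0.13, adjusted p = 7e-13), Pcdh20 (2.03 ± 0.18, adjusted p = 2e-09) and Cdh12 (1.75 ± 0.10, adjusted p = 5.6e-13). Cdh7, Pcdh1, Pcdh10, Pcdh11x and Cdh9 were called in the same direction. Towards tufted types lay Cdh6 (-2.33 ± 0.10, adjusted p = 2.9e-15), Cdh20 (-1.96 ± 0.19, adjusted p = 5.6e-09), Pcdh7 (-1.70 ± 0.10, adjusted p = 1.4e-12) and Cdh13 (-1.03 ± 0.15, adjusted p = 3.2e-06).

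Library by library, 2 of these 15 members separated the classes (5.75% of all genes called did). The delta1-protocadherin Pcdh11x had 523 CPM or more in every mitral library and 483 CPM or less in every tufted library. Pcdh7, of the same subfamily (ENSMUSG00000029108, chr5:57717967-58133230, plus strand, GRCm38), had 838 CPM or less in mitral and 1161 CPM or more in tufted libraries. For the other 13 at least 1 type lay within the range of the other class, as ET2-like nuclei did for Cdh8 and Pcdh9, and M2-like nuclei for Pcdh19 and Cdh7. Cdh13 was called towards tufted types although the tufted ET4-like nuclei had its lowest mean (9.03 CPM). Cdh9 was called towards mitral types although the mitral M2-like nuclei had its lowest mean (2.29 CPM). Cdh9 was not called with DESeq2 (0.996, adjusted p = 0.0013) or without mouse 2 (0.78, adjusted p = 0.15). Without the M1-like library of mouse 1, Cdh13 fell just short (-0.995 ± 0.13, adjusted p = 1.5e-06) and Pcdh15 was called towards tufted types (-1.28 ± 0.08, adjusted p = 3.6e-12), beside -0.70 ± 0.26, adjusted p = 0.042 with it.

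**Figure D3:**
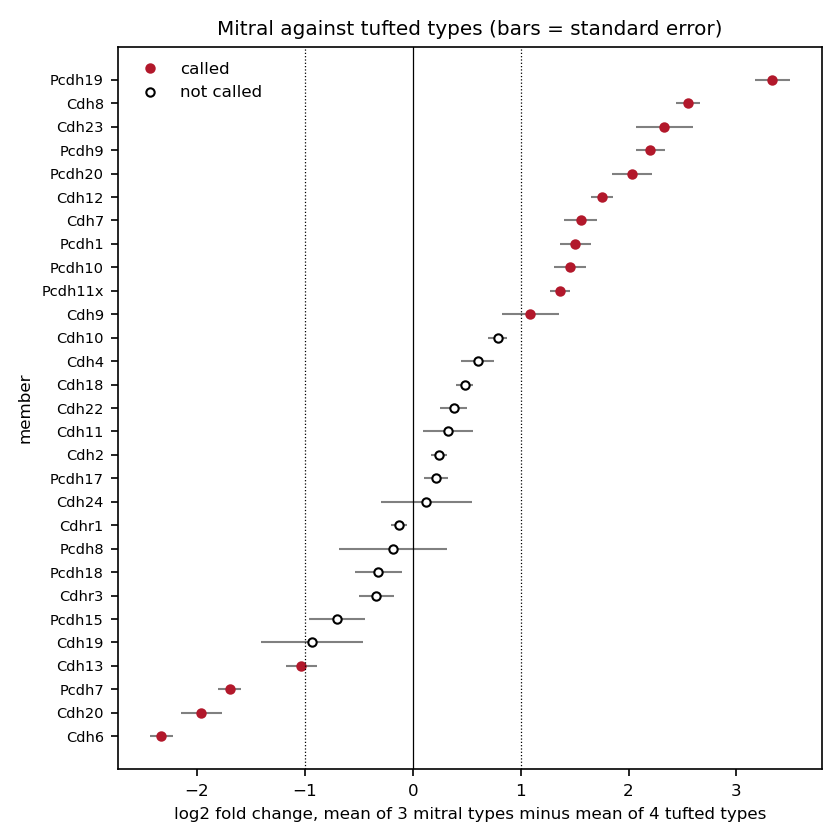
Log2 fold change of the mean of 3 mitral types minus the mean of 4 tufted types for the 29 tested members (y axis), with bars for the standard error, filled points for members called and dotted lines at a log2 fold change of 1 in either direction. Pcdh19 and Cdh8 lie furthest towards mitral types and Cdh6 and Cdh20 furthest towards tufted types.

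Projection neurons as a whole were then compared with inhibitory-like nuclei, the interneurons of the bulb, with counts summed per mouse over the 7 named types and over the inhibitory-like clusters. Of 31 members tested, 7 were called higher in projection neurons (15.4% of all genes were) and 8 higher in inhibitory-like nuclei (13.9% of all genes). In all 15 the 3 projection libraries did not overlap with the 3 inhibitory libraries, as was the case for 98.3% of all genes called. Cdhr1, which had helped to choose the projection clusters and is given as a description, was at 385, 336 and 349 CPM in projection and 15.5, 24.2 and 17.0 CPM in inhibitory-like nuclei. Microglia-like nuclei, which should lack it, had 115 ± 98.8 CPM, and the inhibitory level lay below it.

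Cdhr3 was at 41.5, 37.2 and 24.7 CPM in projection against 7.16, 4.35 and 4.86 CPM in inhibitory-like nuclei (2.76 ± 0.24, adjusted p = 4e-05). Pcdh15 was at 4577, 3809 and 3888 against 1069.7, 859 and 1009 CPM (2.14 ± 0.11, adjusted p = 4.4e-06), and Pcdh11x at 438, 489 and 572 against 145, 148 and 178 CPM (1.75 ± 0.14, adjusted p = 2.5e-05). Cdh6 (1.69 ± 0.14, adjusted p = 3.2e-05), Cdh4 (1.62 ± 0.18, adjusted p = 0.00014) and Cdh23 (1.56 ± 0.19, adjusted p = 0.00028) were the other members higher in projection neurons. As sums, all 7 separated the classes in each mouse, including Cdhr1, which had helped to choose the clusters. Apart from Cdhr1, each had at least 1 type whose mean lay below the inhibitory-like mean. Cdh4 was at 7.12 CPM in T1-like nuclei against 166 CPM, and Cdh23 at 2.64 CPM in ET2-like nuclei against 10.9 CPM. Cdhr3 was at 2.04 CPM in T1-like nuclei against 5.46 CPM, and Cdh6 at 44.8 CPM in M1-like nuclei against 85.4 CPM. The same held for Pcdh15 in M1-like and Pcdh11x in ET4-like nuclei. Cdh8 lay at the threshold, at 109 ± 5.39 against 57.3 ± 5.44 CPM (0.997 ± 0.11, adjusted p = 0.00012), and was called only with the mouse as a block (1.00) or without mouse 2.

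In the other direction Pcdh8 (arcadlin), a delta2-protocadherin induced by neural activity, was at 0.817, 2.09 and 0.598 CPM in projection and 13.2, 13.1 and 14.7 CPM in inhibitory-like nuclei (-3.35 ± 0.38, adjusted p = 0.00017). Pcdh10 (63.5 ± 5.40 against 198 ± 28.5 CPM, -1.56 ± 0.11, adjusted p = 1.7e-05) and Cdh18 (158 ± 28.4 against 435 ± 22.5 CPM, -1.38 ± 0.14, adjusted p = 9.7e-05) followed. Cdh7 (-1.37 ± 0.28, adjusted p = 0.0037), Cdh24 (-1.37 ± 0.25, adjusted p = 0.0021) and Cdh9 (-1.24 ± 0.37, adjusted p = 0.021) completed the 6 largest, and Cdhr2 and Pcdh17 were called as well. By type, Cdh18 (953 CPM in ET2-like nuclei), Cdh7 (27.1 CPM in M1-like nuclei) and Cdh9 (41.0 CPM in M1-like nuclei) exceeded the inhibitory-like mean. That mean was 435 CPM for Cdh18, 18.5 CPM for Cdh7 and 27.0 CPM for Cdh9. The other members called in this direction lay below it in every type. Calls of Cdh7, Cdh9, Cdhr2 and Pcdh17 depend on the setting. Pcdh17 had -1.003 ± 0.11, adjusted p = 0.00018, and -0.99 with the mouse as a block. Without clusters 10 and 12, which had the least Gad2 of the inhibitory-like clusters, Cdh9 (-0.73, adjusted p = 0.13), Cdhr2 (-0.98) and Pcdh17 (-0.99) were not called. Cdh12 was called higher in inhibitory-like nuclei in that setting (-1.01), with library size alone as the scaling (-1.03), without mouse 2 (-1.04) and without mouse 3 (-1.09). Without mouse 1 Cdh9 (-0.74) and Cdh7 (-0.99) fell short, and without mouse 2 Cdhr2 did (-0.84, adjusted p = 0.089).

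**Figure D4:**
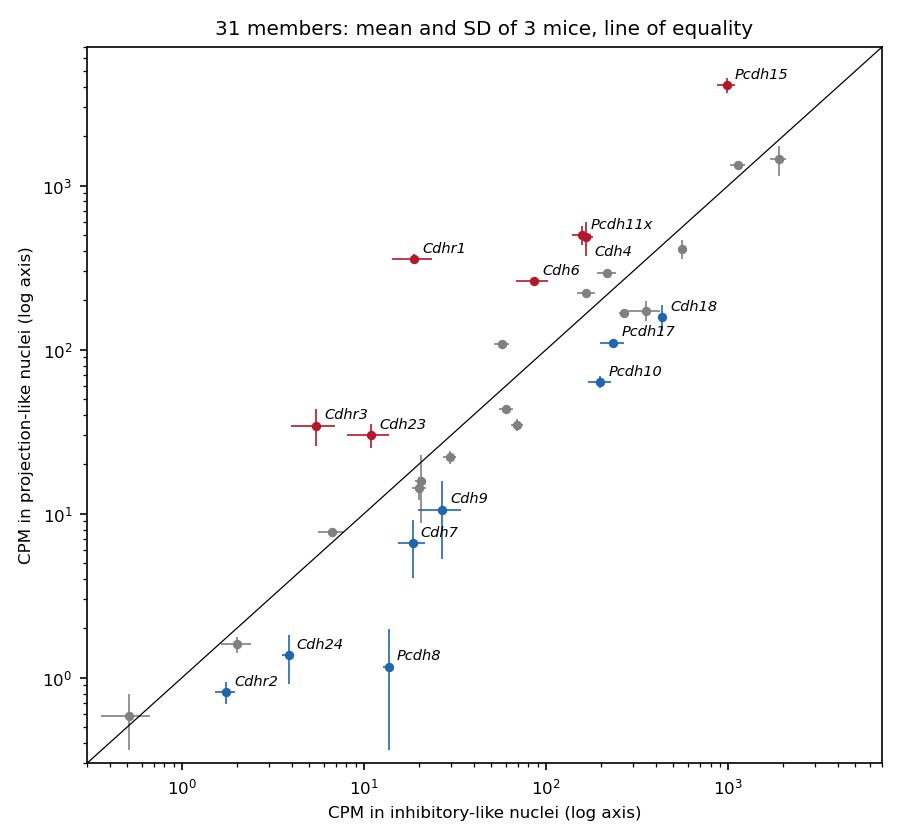
CPM of the 31 tested members in inhibitory-like (x axis) and projection-neuron-like nuclei (y axis) on log axes, as mean of 3 mice with bars for the SD and a line of equality. Red and blue points with names were called higher in projection and in inhibitory-like nuclei, and Cdhr1 and Pcdh8 lie furthest from the line.

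Among the 10 inhibitory-like clusters themselves 28 of 30 tested members differed (59.2% of all genes tested), all but Cdhr1 and Cdhr2. Cluster 10 was marked by Cdh9 at 279.9, 163 and 251 CPM (4.54 ± 0.23, adjusted p = 1.4e-16) and Pcdh20 at 154, 105 and 132 CPM (2.99 ± 0.17, adjusted p = 3.6e-15). Gad2 in clusters 10 and 12, at 144 and 142 CPM, lay below the 147 CPM of astrocyte-like nuclei, while their Gad1 was at 387 and 704 CPM. Cluster 8, led by Calb1 and Foxp2, had 156, 87.1 and 57.8 CPM of Cdh23 (4.56 ± 0.18, adjusted p = 1.8e-18) and 361, 244 and 229 CPM of Cdh11 (2.97 ± 0.13, adjusted p = 7.6e-18). Cluster 15, led by Vip, Pnoc and Sst, held 4098, 3718 and 4635 CPM of Cdh12, a type II cadherin of brain, where cluster 6, the next, held 1331, 1081 and 1216 CPM. Cluster 17 had 1606, 1614 and 1566 CPM of Cdh13, at least as much as ET2-like nuclei, and 135, 97.0 and 108 CPM of Cdh7 (2.96 ± 0.22, adjusted p = 1.6e-12).

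Cluster 7 had the most Pcdh7, at 3294, 2674 and 2988 CPM (1.41 ± 0.11, adjusted p = 3.2e-12), and 579, 501 and 673 CPM of Cdh6 (2.98 ± 0.14, adjusted p = 2.4e-17). It carried all 5 listed markers of immature neurons, but clusters 1 and 8 carried 4 of them each. None of these markers was among the leading genes of cluster 7. Cdh6 was low in clusters 0, 1, 3 and 12, with 11.5 CPM in cluster 12 (-3.16 ± 0.28, adjusted p = 2.8e-10). In cluster 3 Cdh13 (12.9 ± 3.11 CPM, -3.82 ± 0.19, adjusted p = 6.9e-16) and Cdh4 (20.6 ± 4.81 CPM, -2.95 ± 0.19, adjusted p = 3.6e-13) were lowest against the other inhibitory clusters. The largest cluster, 0, had 1 member called higher, Cdh20 (1.18 ± 0.13, adjusted p = 2.3e-08), and 8 called lower (Cdh6, Cdh7, Cdh8, Cdh13, Cdh23, Cdh24, Pcdh8 and Pcdh15), where 3.64% and 5.9% of all genes were. In cluster 6, which carried 4 of 6 periglomerular markers, Cdh12 (2.36 ± 0.16, adjusted p = 3.7e-13) and Pcdh15 (1.93 ± 0.18, adjusted p = 4.4e-10) were furthest above and Cdh20 (-2.06 ± 0.18, adjusted p = 7.6e-11) furthest below.

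Over 21 clusters with at least 10 nuclei in each mouse, all 33 tested members differed (86.0% of all genes did). Cdhr2 (edgeR, adjusted p = 0.024) did not pass with DESeq2 (0.063), without mouse 1 (0.15) or without mouse 3 (0.19). Of 693 pairs of a member and a cluster, 143 were called higher (20.6%) and 153 lower (22.1%), where 9.28% and 5.63% of all gene and cluster pairs were. For 19 of the 693 pairs, of Cdh1, Cdh3, Cdh5 and Cdhr2, and for 5.33% of those of all genes the model gave no usable estimate (a standard error above 50 on the log2 scale, or none), and they count as not called. Each of these 4 members had no UMI in at least 1 cluster. By highest level, 15 members belonged to inhibitory, 11 to glial or vascular and 7 to projection clusters. Of the 21 clusters 10 were inhibitory-like and 5 projection-neuron-like, and all genes were not counted in this way. The split is therefore not read as a trait of the members. Of the 15, 4 were highest in cluster 10, and Cdhr2 was highest in cluster 12, from 19 UMIs. Oligodendrocyte-like nuclei held the most Pcdh9, 13699, 10081 and 12594 CPM, which exceeded every projection type. Cdh19, a cadherin of glial lineages, was at 1133, 759 and 1386 CPM in astrocyte-like, 878, 560.0 and 872 CPM in oligodendrocyte-like and 564, 590.1 and 1126 CPM in ensheathing-like nuclei, and below 4 CPM on average in every projection type.

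Ensheathing-like nuclei, the glia that wrap olfactory axons, were the main site of Cdh3 (P-cadherin), with 64.3, 48.9 and 87.7 CPM against at most 2.97 CPM on average in any other cluster. They also had the highest Cdh24, with 86.8, 67.6 and 94.4 CPM, although Cdh24 was called higher in the inhibitory-like clusters 7 and 17 as well. Astrocyte-like nuclei had the most Cdh2, 873, 545 and 863 CPM. Nuclei like oligodendrocyte precursors (OPC) had the most Cdh20, 914, 738 and 791 CPM, and Pcdh17, 900.2, 458 and 587 CPM. In vascular-like nuclei Cdh5 (VE-cadherin), the endothelial cadherin, was at 59.5, 71.8 and 76.4 CPM and Cdh1 (E-cadherin) at 101, 33.1 and 14.3 CPM, from 78 and 44 UMIs. That cluster was led by Slc6a20a, Ly6c1, Dcn, Cped1 and Slco1a4, and whether it holds a single cell type was not tested. Cdh23 was highest on average in microglia-like nuclei, at 309, 99.5 and 59.8 CPM, but its 87 UMIs and the spread between mice leave that level imprecise.

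**Figure D5:**
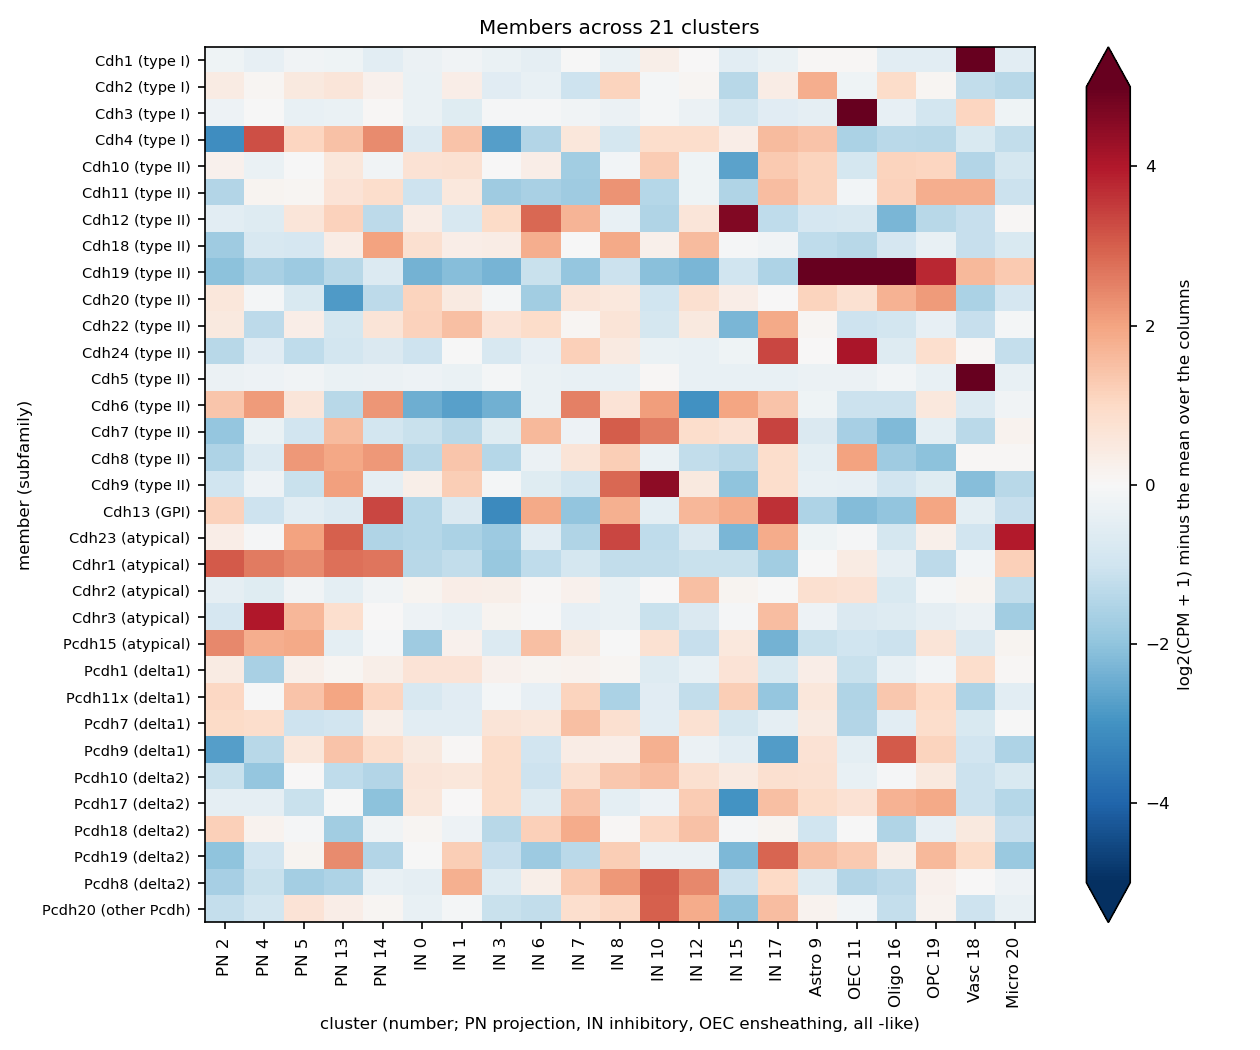
Levels of the 33 tested members (rows) in 21 clusters (columns, grouped by name), as log2(CPM + 1) of the mean of 3 mice minus the mean over clusters, with colours ending at 5 in either direction. Glial and vascular columns hold the highest Cdh19, Cdh3, Cdh24, Cdh5 and Cdh1, and the 5 projection columns share high Cdhr1.

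At the level of single nuclei, thinned to 3000 UMIs each, the levels above became shares of nuclei. Cdh13 was detected in 88.8% ± 4.46 of ET2-like and 1.87% ± 0.516 of ET4-like nuclei, beside 11.1% ± 7.69 of microglia-like nuclei (97.2%, 5.20% and 11.2% before thinning, at median depths of 11893, 10419 and 3405 UMIs). Cdh4 was detected in 96.6% ± 1.31 of ET4-like and 1.34% ± 1.09 of T1-like nuclei, and in 13.0% ± 6.88 of microglia-like nuclei (99.4%, 6.91% and 14.0% before thinning). The shares in ET4-like nuclei for Cdh13 and in T1-like nuclei for Cdh4 were thus below the share in a type that should lack these genes and are read as background. Cdh6 was detected in 82.3% ± 2.55 of ET1-like nuclei (95.9% before thinning) and Cdh8 in 45.7% ± 2.62 of M2-like nuclei (80.9%), against 15.7% ± 21.3 and 3.51% ± 3.20 of microglia-like nuclei (10.2% and 6.43%). Without mouse 1 the thinned microglia-like shares were 6.70% for Cdh13, 9.55% for Cdh4, 3.57% for Cdh6 and 5.27% for Cdh8. The shares read as background lay below these as well.

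Cdhr1 was detected in 42.4% ± 7.21 of ET4-like to 72.2% ± 1.21 of T1-like nuclei, against 9.40% ± 8.30 of microglia-like nuclei (70.8%, 97.0% and 15.9% before thinning). In the inhibitory-like clusters the share ran from 4.14% ± 2.48 to 8.55% ± 6.08, at or below the microglial share. Pcdh15 was detected in 99.1% ± 0.885 of ET1-like nuclei but in 34.3% ± 26.3 of M1-like nuclei (19.3% without mouse 1), and in 47.6% ± 13.7 of microglia-like nuclei (99.0%, 65.0% and 28.8% before thinning). The M1-like share lay below the microglia-like share after thinning and above it before, so it is not told from background here. A nucleus of 3000 UMIs held UMIs of 8.91 ± 0.324 members on average in ET2-like nuclei, the most of the named types, and 6.42 ± 0.228 in ET4-like nuclei, the fewest (12.8 and 9.70 before thinning). This order rests on the thinning, since before it M2-like nuclei held the most (15.0) and M3-like nuclei the fewest (9.08). After thinning the mean was 9.05 ± 0.540 in OPC-like, 3.77 ± 0.318 in microglia-like and 3.13 ± 0.691 in vascular-like nuclei. Thinning left out 68 of 326 M3-like and 55 of 146 microglia-like nuclei, and between 3 and 11 nuclei of each other projection type.

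The genes whose levels followed the 4 leading members most closely were sought among all genes tested, by Pearson's r of log2(CPM + 1) over 7 types or 21 clusters. Types and clusters share mice and depth, and r is given as a description. Over types Cdh13 was followed most closely by Igfbp7 (r = 0.985), E130304I02Rik (r = 0.974) and Galnt14 (r = 0.970), and Cdh8 by Lrrc8c (r = 0.989), Mbd4 (r = 0.981) and Clic4 (r = 0.976). Cdh6 was followed by Slc22a22 (r = 0.980), Ccne1 (r = 0.962) and Pag1 (r = 0.958), and Cdhr1 by Elovl4 (r = 0.979), Lgmn (r = 0.932) and Rnf145 (r = 0.927). Over clusters, Cdhr1 went with Slc17a7, a vesicular glutamate transporter (r = 0.944), Rasa4 (r = 0.938) and Nradd (r = 0.936). The study had used both Cdhr1 and Slc17a7 to choose projection neuron clusters, and Slc17a7 was a naming marker here. Their match is not independent of that choice. The nearest genes of the others over clusters were Gm45721 for Cdh13 (r = 0.863), Fxyd7 for Cdh8 (r = 0.846) and Xkr6 for Cdh6 (r = 0.797).

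Members were also compared with each other in this way. Over the 7 types the highest r were those of Pcdh11x with Cdh10 (0.916), Cdh8 with Pcdh20 (0.912) and Cdh23 with Cdh12 (0.883), and the lowest was that of Cdh20 with Cdh7 (-0.876). Over the 21 clusters Cdh5 and Cdh1 shared the vascular-like cluster (0.983). Pcdh10 and Cdhr1 were furthest apart there (-0.770).

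The intracellular partners of cadherins were followed in the same fits. Catenins and their linkers link cadherins to actin, and all 11 listed genes differed between types (64.8% of all genes did). In the contrast of mitral with tufted types Ctnna3 was called towards tufted types, 1 of the 11 where 3.81% of all genes were called in that direction (-1.29 ± 0.17, adjusted p = 1e-06). By type, Ctnna3 was called higher in ET1-like (1.70), ET4-like (1.05) and the mitral M1-like nuclei (1.20). It was called lower in M2-like (-2.22) and M3-like nuclei (-1.56), and not called in T1-like (0.75) or ET2-like nuclei (-0.93). The median over the list was 0.09 beside -0.03 over all genes. Between projection and inhibitory-like nuclei Arvcf, a p120-family catenin, was higher in the former (1.46 ± 0.10, adjusted p = 1.4e-05) and Pkp4, Ctnna3, Jup and Ctnna1 were higher in the latter. These were 1 and 4 of the 11, where 15.4% and 13.9% of all genes were called. Of 9 genes of the WAVE complex and its partners, which act below delta-protocadherins, 4 differed between types (Abi2, Brk1, Wasf1 and Wasf3), beside 64.8% of all genes, and none was called between mitral and tufted types by edgeR. Abi2 (0.38 ± 0.06, adjusted p = 2.9e-05) and Wasf3 (-0.31 ± 0.09, adjusted p = 0.014) passed the adjusted p but not the fold threshold, and 28.9% of all genes passed that p. At an unadjusted p under 0.05 there were 4 of the 9, beside 37.6% of all genes. Cyfip1 was higher in inhibitory-like nuclei (-1.44 ± 0.10, adjusted p = 1.4e-05), 1 of the 9 where 13.9% of all genes were called.

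Of 19 listed genes of the wider cadherin superfamily, which includes Fat, Dachsous, Celsr and calsyntenin proteins, 14 were tested between types and 13 differed, all but Celsr3 (64.8% of all genes differed). Fat4, a giant cadherin of planar polarity (1.43 ± 0.12, adjusted p = 7.4e-10), and Clstn2, a calsyntenin (3.14 ± 0.16, adjusted p = 5.1e-14), were called towards mitral types. By type, Fat4 was called higher in M2-like (1.62) but not in M1-like (0.98) or M3-like nuclei (0.28). Clstn2 was called higher in M1-like (3.54), M2-like (2.25) and the tufted ET2-like nuclei (2.71), but not in M3-like nuclei (0.49). Dchs2 (-1.68 ± 0.25, adjusted p = 9.5e-06) and Ret, a receptor kinase with cadherin-like repeats (-1.72 ± 0.50, adjusted p = 0.01), were called towards tufted types. Among tufted types, only ET2-like nuclei had them called higher than the other types (5.03 for Dchs2 and 4.60 for Ret). Dchs2 was called lower in T1-like (-1.25) and ET1-like nuclei (-1.41). Between classes 6 of 16 were higher in projection neurons (Fat2, Fat3, Fat4, Clstn2, Dsc2 and Dsg2) and 4 in inhibitory-like nuclei (Celsr2, Dchs1, Dchs2 and Ret), where 15.4% and 13.9% of all genes were. Dsc2 had also been a naming marker of M1-like nuclei.

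In all 11 members were not tested between types, because their counts were too low. Cdh1, Cdh3, Cdh5 and Cdhr2 were tested in other fits. Cdhr4, Cdhr5, Pcdh12, Cdh16, Cdh17 and Cdh26 had 1, 2, 8, 39, 57 and 90 UMIs over all nuclei. With Cdh15 they make up the 7 members in no fit. For none of these can a low level be told from absence in a type at this depth.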

How the data were processed

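Nuclei were gated for GFP and the DNA dye DRAQ5, and libraries were made with a 3′ droplet kit. The deposited UMI counts per gene and barcode of each mouse had been made by the authors with Cell Ranger 3.0.2 on build mm10 (GRCm38, per the submitters' processing notes) without normalization. Whether intronic reads were counted is not given in the sources used here. The authors had integrated the mice and clustered the nuclei that passed filters on genes detected and mitochondrial UMIs in Seurat, and their deposited table gave each nucleus its mouse, cluster and subcluster. Its 10 other columns of values per nucleus were not used.

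Clusters and subclusters were named from marker lists. A marker counted as carried at 25% (50% for subclusters) or more of its highest level, and a name needed at least 3. These floors were set with the values in view. The sort had gated out doublets by scatter, and no doublet caller was run here. Raw counts were summed per mouse and cluster, subcluster or class (at least 10 nuclei). Sums were filtered with filterByExpr, scaled by TMM and tested with edgeR 4.0.16 in R 4.3.3 (quasi-likelihood test, no covariate, p-values adjusted by Benjamini-Hochberg over the whole table). Such sums replace the study's tests on single nuclei. The scripts were tested on simulated counts. CPM are UMIs per 1000000 UMIs of a summed library. Positions were taken from GENCODE M21 by identifier, for all 40 members. Nuclei were thinned to 3000 UMIs for shares of nuclei.

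Libraries of a mouse come from 1 animal, so the mouse pairs them. Their deviations from the group means correlated with r = 0.267, 0.364 and 0.469 between the classes in mice 1, 2 and 3, and with a mean r of 0.125 between types. The fits reported carry no term for the mouse, as none is named in the methods, and the block was run beside them. Members and lists were chosen with earlier results of these data known. Named were the 4 leading members, the cadherins that the study names, up to 3 members called in each direction per type or inhibitory cluster (for clusters a selection of these, made after the values were seen), and all members called between classes. Errors of levels are SDs over 3 mice, and those of log2 fold changes are standard errors. Alternatives were RLE or library-size scaling, no filter, DESeq2 1.42.0, the mouse as a block, leaving out each mouse, at least 20 nuclei per library, all subclusters in the fit, no thinning and, added after the data were seen, leaving out clusters 10 and 12.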

Additional observations from a re-analysis of the deposited data

How the results depend on the processing

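Summed over types, over clusters or between classes, the counts of members called stayed within 1.5 times of the reported ones under each alternative run. Taken contrast by contrast, 4 of 160 counts in the type fits moved further, those given above for ET1- and M3-like nuclei, and so did 26 of 336 in the cluster and 11 of 176 in the inhibitory fits. Lower calls in cluster 18 went from 14 to 7 without mouse 1 or with library size alone and to 9 with RLE scaling, and those in cluster 2 from 13 to 6 without mouse 2. No call between types or classes changed direction. In cluster 20 Cdh19, called higher, had -7.49 ± 4.80 (edgeR, adjusted p = 0.39) without mouse 2. Members that differed between types numbered 25 (DESeq2) to 28 (all subclusters in the fit) beside 26, and between inhibitory clusters 26 to 28. Between types Pcdh8 was gained without the filter, with the block and with all subclusters, and Cdh19 with all subclusters. Between inhibitory clusters Cdh19 was lost with DESeq2 and without mouse 1 or 2, and Cdhr3 without mouse 2. Mitral types had 10 or 11 members called higher and tufted types 4 in each alternative. Projection neurons had 7 or 8, and inhibitory-like nuclei 6 to 9. Over clusters, calls numbered 135 to 158 higher and 108 to 156 lower. With the mouse as a block, which pairs the libraries of an animal, 27 members differed between types, 52 calls were higher and 45 lower in a type against the others (50 and 44 without it), 11 and 4 were called between mitral and tufted types, and 8 and 7 between projection and inhibitory-like nuclei. Beside those given above, the block changed no call between types or classes. In the cluster fit it ended 3 calls and added 6, and in the inhibitory fit 1 and 2. Leaving out mouse 1, 2 or 3 ended 7, 9 and 7 of the calls between types and classes, DESeq2 ended 5, library size alone 7 and fitting all subclusters 7. In the cluster fit 43, 62 and 35 of the 143 higher and 153 lower calls ended without mouse 1, 2 or 3, and in the inhibitory fit 13, 13 and 8 ended. Cdh11 and Pcdh7 lost calls in 4 types each, and those of Cdh11 in M3-, ET1- and ET2-like nuclei were lost with DESeq2 and without mouse 2. The cause was not tested. Without mouse 1 the calls of Pcdh7 in M1- and M3-like nuclei, Cdhr3 in M3-like nuclei, Cdh13 between mitral and tufted types and Cdh7, Cdh9 and Pcdh17 between the classes were lost. Without mouse 2 those of Pcdh7 in M1-like, Pcdh15 in ET1-like, Cdh7 in ET4-like and Cdh11 in M3-, ET1-, ET2- and ET4-like nuclei, of Cdh9 between mitral and tufted types and of Cdhr2 between the classes were lost, and Cdh19 in ET2-like nuclei was not tested. Without mouse 3 those of Pcdh11x and Pcdh17 in M1-like, Pcdh20 in M2-like, Pcdh7 in M3-like, Cdh19 in ET2-like and Pcdh9 in ET4-like nuclei and of Pcdh17 between the classes were lost. The cluster fit gave no usable estimate for 27 of 693 pairs without mouse 1, Cdh24 joining the 4 members named above, and for 96 of 672 pairs of 13 members without mouse 2, among them Cdh7, Cdh9, Cdh19, Cdh23, Cdh24, Cdhr3, Pcdh8, Pcdh18, Pcdh19 and Pcdh20. The lower count of 108 belongs to that fit. Without thinning, members per nucleus were higher in most groups, as the values in the text show. Levels from few UMIs are imprecise, as in the M1-like library of mouse 1, M3-like nuclei, members under 100 UMIs, and the microglia-like library of mouse 1 (61554 UMIs), and the OPC-like (122638 UMIs) and oligodendrocyte-like libraries (139914 UMIs) of mouse 3.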

Other observations

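The unnamed subclusters of projection neuron clusters were in neither the 7 types nor the projection class compared above, though their nuclei are part of the whole clusters fitted. Member levels are given as values for subclusters 2 and 8. Subcluster 9 had 9 nuclei in mouse 1 and 8 in mouse 3, fewer than the 10 required, and no levels are given for it. Subcluster 2, with 943 nuclei and a median of 20122 UMIs, carried 6 of 7 inhibitory markers relative to the other subclusters. Its Gad1, at 302 CPM, lay within the 291 to 338 CPM given above for the named glial and vascular clusters, but above the 195 CPM of the OPC-like cluster. The named types had from 31.6 CPM (M2-like) to 127 CPM (ET2-like) of Gad1. It held 269.9, 227 and 270.1 CPM of Cdhr1, 3542, 3379.6 and 3933 CPM of Pcdh15 and 209.8, 241 and 272 CPM of Cdh20 in mice 1, 2 and 3. Its Cdh13 was at 196, 139.7 and 128 CPM and its Cdh4 at 250.2, 409 and 178 CPM. Subcluster 8, with 126 nuclei and 3 of the 6 general projection neuron markers, held 427, 324 and 441 CPM of Cdh12, 388, 339 and 356 CPM of Cdh6 and 250.1, 203 and 188 CPM of Cdhr1. Cdh12 was detected in 59.8% ± 6.43 of its nuclei after thinning, beside 48.5% ± 17.3 of M1-like (58.5% without mouse 1) and 17.2% ± 3.81 of microglia-like nuclei (88.6%, 73.0% and 13.9% before thinning). A nucleus thinned to 3000 UMIs held 8.28 ± 0.276 members in subcluster 2 and 7.09 ± 0.436 in subcluster 8 (15.3 and 12.3 before thinning).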
